A study of Mus musculus with 6 samples.

Results

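The Gstt and Ddt locus is a run of neighbouring genes on mouse chromosome 10. Its 5 members, in genome order, were Ddt, Gstt3, Gstt1, Gstt2 and Mif. They are 5 of the 16911 genes named in the deposited table, and all 5 passed the filter for testing, a mean normalized read count of at least 10 over the 6 libraries. Gstt1 and Gstt3, with wild-type means of 1.10 and 6.93, passed it only through the knockout libraries, whose means were 234 and 119. The members were chosen by their position on chromosome 10 and by their measured values in knockout against wild-type libraries, with Mif taken as a nearby comparison. The knockout against wild-type values of these 5 genes are therefore given as a description, with no test. The samples were naive CD4 T cells of C57BL/6 mice, obtained by magnetic enrichment followed by a flow cytometry sort. The titles of all 6 libraries carry the label D0, which the titles do not explain. The wild-type group (WT1, WT2 and WT3) came from littermates, and the other group (KO1, KO2 and KO3) came from mice labelled Trim28 KO. How and in which cells Trim28 was deleted, the age of the mice and whether each library is a separate mouse are facts that no source used here gives. Without the last of them, p-values measure only the spread between these libraries, which may be technical.

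Theta class glutathione transferases, the Gstt genes, encode enzymes that join glutathione to small reactive molecules and so take part in their detoxification, chiefly in liver and kidney. Ddt encodes D-dopachrome tautomerase, a small protein related in sequence and fold to the cytokine macrophage migration inhibitory factor, which Mif encodes. Both proteins are released by many cells, T cells among them, and bind the receptor Cd74. Trim28 is recruited to chromatin by KRAB zinc finger proteins, and there it helps to keep retroelements and some genes silent.

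All 5 genes lie on the minus strand, so that transcription runs from Mif towards Ddt. On the GRCm38.p6 assembly, which is the assembly of mm10, Ddt spans chr10:75771233-75773374, Gstt3 chr10:75774117-75781422, Gstt1 chr10:75783813-75798584, Gstt2 chr10:75831842-75837419 and Mif chr10:75859353-75860277. Ddt, Gstt3 and Gstt1 are packed together, with 742 bp between Ddt and Gstt3 and 2390 bp between Gstt3 and Gstt1. A further theta class gene, Gstt4 (chr10:75814943-75822566), lies 16.4 kb beyond Gstt1 and 9.28 kb before Gstt2. From the first base of Ddt to the last base of Gstt2 is 66.2 kb, and a gap of 21.9 kb separates Gstt2 from Mif. In GENCODE M21 the transcripts that match the table's rows have 3 exons in Ddt, 5 in Gstt3, 5 in Gstt1, 5 in Gstt2 and 3 in Mif.

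Start regions are shown so that those of Ddt, Gstt3 and Gstt1, which were higher in the knockout libraries, can be compared with that of Mif, whose groups overlapped. RefSeq's table of the GRCm38.p6 assembly holds a window for 4 of the members, from 250 bases before to 50 bases after a start site. The windows are Ddt at chr10:75773325-75773624, Gstt3 at chr10:75781373-75781672, Gstt1 at chr10:75797682-75797981 and Mif at chr10:75860228-75860527, each printed 5′ to 3′ on the minus strand. The Gstt1 window belongs to a start site 853 bases inside the transcript of the table's row, in its first intron. Capitals mark matches, on either strand, to the GC box GGGCGG and to the core of the antioxidant response element, TGACNNNGC.
Ddt: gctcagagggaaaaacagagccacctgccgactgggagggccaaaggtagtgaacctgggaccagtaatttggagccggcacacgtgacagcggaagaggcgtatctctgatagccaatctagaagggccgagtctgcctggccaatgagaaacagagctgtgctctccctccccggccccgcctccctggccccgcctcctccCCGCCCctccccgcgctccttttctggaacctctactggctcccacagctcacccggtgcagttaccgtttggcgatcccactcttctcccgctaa
Gstt3: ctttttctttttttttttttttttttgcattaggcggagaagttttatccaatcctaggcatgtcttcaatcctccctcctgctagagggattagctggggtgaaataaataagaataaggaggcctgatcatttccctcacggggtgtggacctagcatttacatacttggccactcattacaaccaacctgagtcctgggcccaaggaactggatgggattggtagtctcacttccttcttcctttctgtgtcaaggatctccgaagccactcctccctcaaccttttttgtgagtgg
Gstt1: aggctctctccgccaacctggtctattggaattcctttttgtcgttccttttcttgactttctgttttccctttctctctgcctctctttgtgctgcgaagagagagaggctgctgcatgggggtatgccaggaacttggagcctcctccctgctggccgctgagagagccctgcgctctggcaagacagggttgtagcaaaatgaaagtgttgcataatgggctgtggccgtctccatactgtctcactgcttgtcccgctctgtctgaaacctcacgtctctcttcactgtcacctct
Mif: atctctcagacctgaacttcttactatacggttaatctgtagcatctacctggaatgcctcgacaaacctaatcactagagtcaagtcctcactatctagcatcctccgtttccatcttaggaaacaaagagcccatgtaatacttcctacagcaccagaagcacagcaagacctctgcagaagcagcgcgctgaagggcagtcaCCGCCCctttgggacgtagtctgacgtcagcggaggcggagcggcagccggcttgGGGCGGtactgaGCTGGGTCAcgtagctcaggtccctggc
The 4 windows differed in composition. The Ddt window held 16 CG dinucleotides and the Mif window 14, against 8 in the Gstt1 window and 3 in the Gstt3 window, and the median over the 32851 windows of the RefSeq table was 7. The GC box was found 1 time in the Ddt window and 2 times in the Mif window, in neither Gstt window, and in 35.7% of all windows. The antioxidant response element core was found 1 time, in the Mif window, and in 12.4% of all windows. The TATA box letters TATAAA were in none of the 4 windows and in 13.6% of all windows. The matches marked in these windows do not overlap one another.

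Trim28, the targeted gene, tests the labels. The wild-type libraries held 8429, 8287 and 9428 normalized reads of it, against 738, 628 and 1247 for KO1, KO2 and KO3 (log2 difference -3.38, SE 0.22, limma adjusted p 0.000135). All 3 knockout libraries were low, and the groups lay far apart. Normalized reads are reads scaled by 1 factor per library, so that libraries of unequal depth can be set side by side. Tests were made with limma, a linear model fitted to all 13022 tested rows, and a row is said to be called when its Benjamini-Hochberg adjusted p is under 0.05. Depth ran from 22005759 to 44372701 reads per library. KO3 held the most Trim28 RNA among the knockout libraries, at 0.143 times the wild-type mean, against 0.0846 in KO1 and 0.0721 in KO2.

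The CD4 T cell identity of the libraries was checked on 8 marker genes, all of which had a row. Their summed normalized count ran from 103703 to 104549 in wild-type and from 95413 to 105185 in knockout libraries. KO3 stood apart on markers of other cells. The sum of 5 B cell markers was 171 to 321 in the wild-type libraries, 192 in KO1, 188 in KO2 and 1465 in KO3. The sum of the CD8 T cell markers Cd8a and Cd8b1 was 561 to 1065 in wild-type libraries, 755 and 708 in KO1 and KO2, and 4416 in KO3. The sum of 3 NK cell markers was 55.8 to 60.5 in wild-type libraries, 85.0 and 75.8 in KO1 and KO2, and 376 in KO3, and that of 5 myeloid markers was 35.2 to 215, then 71.4 and 58.3, and 452 in KO3. Of these defining markers, Itgam and Klra8 were at 0 in WT1, Cd68 in WT3, KO1 and KO2, and Pax5 in KO2. Member values are therefore given with and without KO3 below. Among 4 hepatocyte markers, taken because liver holds much of these enzymes, 2 had a row, and the albumin gene Alb was at 0 in 5 of the 6 libraries. KO3 was also highest for 3 erythroid markers, at 105 against 13.1 to 89.2 in the wild type, and for 3 platelet markers, at 215 against 99.0 to 148. No tested marker of these lists was called in limma, beside 1.51% of all tested rows. Those tested were 8 CD4 T cell, 4 B cell, 2 CD8 T cell, 2 myeloid, 2 erythroid, 1 NK cell and 1 platelet marker, and 0 hepatocyte markers. The other markers had no row or were too low to be tested.

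Transcripts of the 3 theta class members and of Ddt were more abundant in every knockout library than in any wild-type library. Gstt1 and Gstt3 went from almost no reads to over 75 normalized reads in each knockout library, and Gstt2 and Ddt, which wild-type cells already held, were 3.51 and 2.65 times as high in the group means. For Mif, 21.9 kb beyond Gstt2, the groups overlapped. All 3 knockout values lay above all 3 wild-type values in 4 of the 5 members. Over the 13022 rows tested this held for 9.21%, and the opposite order for 9.58%. Since the rule that chose the members used these values, nothing is read from that comparison. In bulk RNA of sorted cells, more cells that hold a transcript and more of it per cell cannot be told apart.

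**Figure D1:**
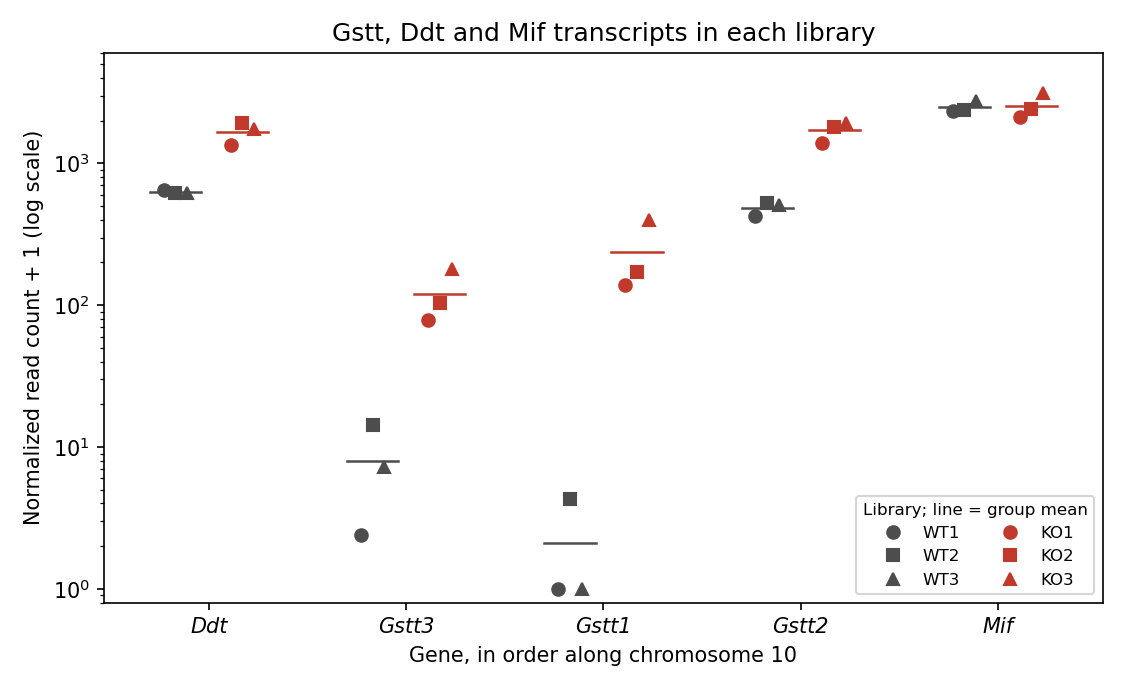
Normalized read count plus 1 of the 5 members, on a log axis, in genome order, with 1 point per library (grey for wild-type, red for knockout, the shape giving the replicate number) and a line at each group mean. Knockout points lie above wild-type points for Ddt, Gstt3, Gstt1 and Gstt2, and the groups overlap for Mif, at 2120 to 3136 in the knockout and 2333 to 2730 in the wild type.

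Gstt1, which encodes the best studied theta class enzyme, was close to silent in wild-type cells. The row NM_008185 held 0, 3 and 0 reads in WT1, WT2 and WT3, where 3 reads are worth 4.18, 3.30 and 2.32 normalized reads. The knockout libraries held 192, 116 and 498 reads, which are 137, 169 and 397 normalized reads in KO1, KO2 and KO3. With reads pooled over libraries, the knockout group held 235 times the wild-type level, with a 95% exact binomial interval of 80.1 to 1141. The interval covers counting error only, and reads copied by PCR are not independent molecules. KO3 was the highest knockout library, 2.90 times the lowest, KO1. Without KO3 the knockout mean fell from 234 ± 142 (SD, n = 3) to 153, which is 139 times the wild-type mean against 213 times with all 6 libraries. The wild-type level rested on WT2 alone. Without WT1 or without WT3 the ratio of means was 142, and without WT2, with 0 wild-type reads left, Gstt1 was at least 157-fold higher, taking 3 reads over the remaining wild-type libraries as the floor. The log2 difference of Gstt1 was 7.02. Before log2 was taken, 1 was added to each normalized read count, which understates the change of genes with few reads.

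Gstt3, the theta class gene between Gstt1 and Ddt, was low but measurable in wild-type cells. WT1, WT2 and WT3 held 1.39, 13.2 and 6.18 normalized reads, and KO1, KO2 and KO3 held 77.8, 102 and 179. The lowest knockout library was 5.89 times the highest wild-type library. The group means were 6.93 ± 5.94 and 119 ± 52.6 (SD, n = 3 per group). They rest on 21 wild-type and 403 knockout reads. WT2 set much of the wild-type level. The ratio of the group means was 17.2 with all libraries, 31.5 without WT2 and 13.0 without KO3.

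Gstt2 was the theta class gene that wild-type naive cells expressed. It was counted at 425, 527 and 507 normalized reads in the wild type, then at 1386, 1813 and 1930 for KO1, KO2 and KO3. The lowest knockout library was 2.63 times the highest wild-type library, and the 3 knockout libraries differed by 1.39 times at most. The means were 487 ± 54.0 and 1709 ± 286 (SD, n = 3 per group), a log2 difference of 1.80. The ratio of the means ran from 3.29 without KO3 to 3.85 without KO1.

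Ddt was expressed at a steady level in wild-type cells, at 648, 614 and 618 normalized reads. In KO1, KO2 and KO3 it was at 1338, 1915 and 1738. The groups lay apart, with the lowest knockout value 2.06 times the highest wild-type value. The means were 627 ± 18.8 and 1663 ± 295 (SD, n = 3 per group), a log2 difference of 1.39, and the ratio of means was 2.59 without KO3. KO2, not KO3, was the highest knockout library for Ddt.

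Mif encodes the cytokine itself. WT1, WT2 and WT3 held 2333, 2391 and 2730 normalized reads of it, with 2120, 2415 and 3136 for KO1, KO2 and KO3. KO1 was the lowest and KO3 the highest of all 6 libraries, so the groups overlapped. The means were 2485 ± 214 and 2557 ± 523 (SD, n = 3 per group), and the log2 difference of 0.03 was smaller than the SD of 0.22 within groups. It was -0.13 without KO3. The ratio of the Ddt to the Mif count, in which transcript length is the same for every library, was 22.6% to 27.8% in wild-type and 55.4% to 79.3% in knockout libraries. It sets libraries side by side, not the levels of the 2 genes.

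Levels of different genes can be set side by side only per length of transcript. Per kb of the matching GENCODE transcript, the wild-type means in normalized reads were 4567 for Mif, 966 for Ddt, 355 for Gstt2, 3.68 for Gstt3 and 1.06 for Gstt1. The knockout means per kb were 4700 for Mif, 2563 for Ddt, 1248 for Gstt2, 226 for Gstt1 and 63.5 for Gstt3. The order of the highest 3 was the same in both groups. Gstt1 and Gstt3 exchanged places. Their wild-type levels per kb did not differ beyond their spread, at SDs of 1.84 and 3.16, and their knockout levels had SDs of 137 and 28.0.

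The 4 genes differed in how they spread over the knockout libraries. KO3 was highest and KO1 lowest for Gstt1, Gstt3 and Gstt2, and KO3 held 169% of the knockout mean of Gstt1 and 149% of that of Gstt3. For Gstt2 and Ddt, KO3 held 113% and 104% of the knockout mean. KO3 is also the library with the highest sums of B, CD8 T, NK and myeloid markers and with the most Trim28 RNA, and the part of these in the KO3 values was not tested. In KO1 and KO2, where the B, CD8 T and myeloid marker sums lay at 0.432 to 0.907 times the wild-type means, Gstt1 stood at 125 and 154, Gstt3 at 11.2 and 14.7, Gstt2 at 2.85 and 3.73 and Ddt at 2.13 and 3.05 times the wild-type mean. Single markers did not all follow their sums. The myeloid sum was carried by Lyz2, at 167, 5.50 and 97.3 normalized reads in the wild type and 17.1, 4.37 and 287 in KO1, KO2 and KO3. Csf1r, the other tested myeloid marker, was at 33.5, 20.9 and 38.6 in the wild type and 49.3, 51.0 and 144 in KO1, KO2 and KO3, so that every knockout library lay above every wild-type library, without passing (limma adjusted p 0.296). The NK marker sum was 1.44 and 1.29 times the wild-type mean in KO1 and KO2, and the part of NK and myeloid cells in the member values was not tested.

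**Figure D2:**
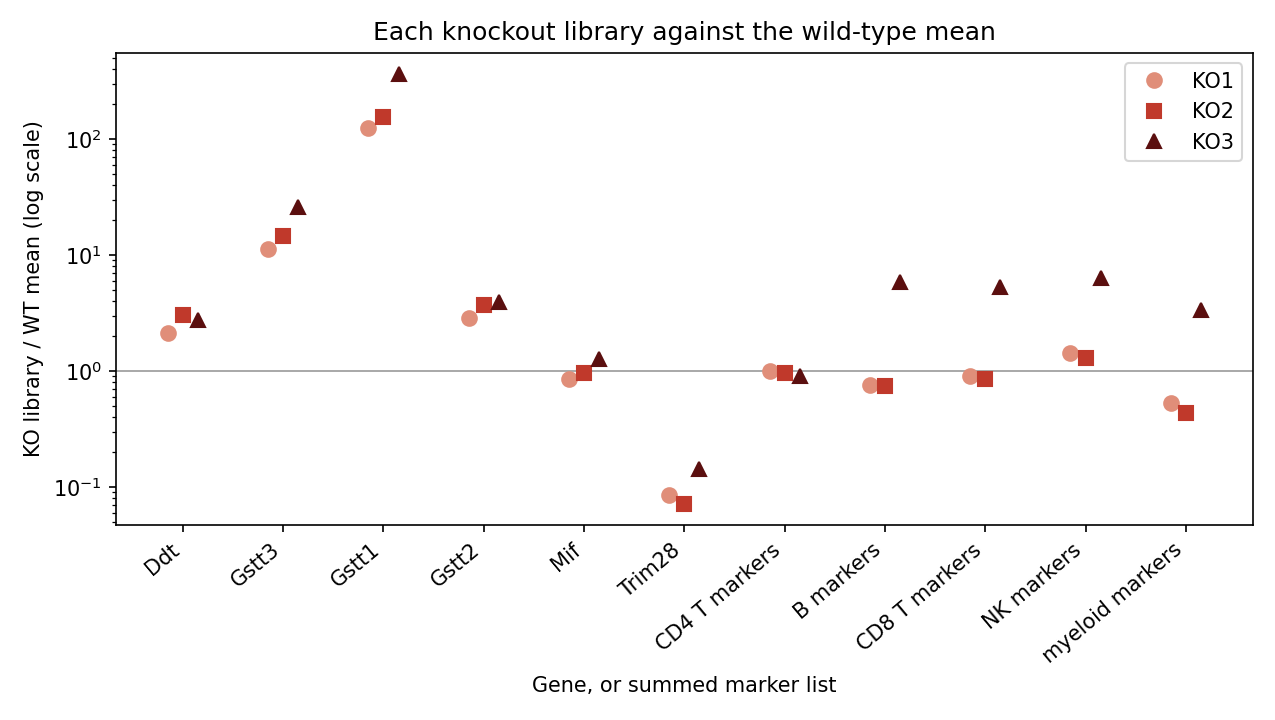
Each knockout library as a multiple of the wild-type mean, on a log axis, for the 5 members, Trim28 and the summed counts of 5 marker lists, with the shape and shade giving the library. Gstt1, Gstt3, Gstt2 and Ddt lie above 1 in all 3 knockout libraries, while the B, CD8 T and myeloid sums lie above 1 only in KO3 and the NK sum lies above 1 in all 3.

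Because the theta class genes are paralogs, the transcripts were compared for stretches that reads could share. The longest identical stretch between the Gstt3 and Gstt1 transcripts was 35 bases, between Gstt3 and Gstt2 26 bases, and between Gstt1 and Gstt2 17 bases. None of the 100-base windows of the Gstt3, Gstt1 or Gstt2 transcripts, the length of the reads, was found in a transcript of another theta class gene. Gstt3 and Gstt1 were the closest pair, at 69.5% identity over aligned bases. Ddt and Gstt3 do share windows with 1 model. GENCODE M21 lists Gm20441, a transcript on the same strand whose 6 exons are 4 from Gstt3 followed by 2 from Ddt, and 24.2% of the Ddt windows and 23.9% of the Gstt3 windows occur in it. No row of the table carries the name Gm20441, so reads of such a joined transcript cannot be told apart from those of Ddt or Gstt3 in those windows. In the knockout, the whole Gstt3 level was 63.5 normalized reads per kb and that of Ddt 2563. The part of a joined transcript in either level was not tested. For Mif, 47.0% of the windows also occur in 3 other genes, C230062I16Rik, Gm10169 and Gm16379. How reads that fit several places were counted is not given.

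The genes on either side of the locus were tested too. The window ran from 500 kb before Ddt to 500 kb after Mif and held 44 other RefSeq genes, of which 27 had a row and 17 were tested. In limma 0 of the 17 rose and 1 fell, and an unadjusted p under 0.05 was found for 3 (Gucd1, Cabin1 and Ggt1), where 12.7% of all tested rows had one. The call rate over all tested rows was 1.51%, with 1.19% called as higher and 0.315% as lower. The 17 log2 differences ran from -0.66 to 0.60, with a median of 0.13 against 0.0019 over all tested rows, and 13 of them were above 0. The groups did not overlap in 3 of the 17 (Gucd1, Cabin1 and Dip2a), against 18.8% of all tested rows. Ggt1 and Dip2a are named after their values were seen.

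Since the members were chosen by their values, the sizes of the neighbours' differences are given for themselves and not set against those of the members. Gstt4, which lies between Gstt1 and Gstt2, was too low to be tested. Its normalized reads were 0, 0 and 0.772 in the wild type and 2.86, 1.46 and 4.78 in KO1, KO2 and KO3. These values rest on 1 read in all for the wild type and 11 for the knockout. That is a ratio of 9.61 with a 95% exact binomial interval of 1.4 to 414, which covers counting error only. Cabin1, an inhibitor of calcineurin that begins 6.88 kb from Ddt, had 4489, 4774 and 5168 normalized reads in WT1, WT2 and WT3, against 7061, 5607 and 5562 for KO1, KO2 and KO3. Its groups lay apart, by a log2 difference of 0.33 (SE 0.11), but it did not pass (limma adjusted p 0.268). Beyond Mif, the gap to Derl3, a factor of protein degradation in the endoplasmic reticulum, is 33.1 kb. Derl3 went from 44.7 ± 9.06 to 55.0 ± 29.6 (SD, n = 3 per group; limma adjusted p 0.905). Smarcb1, a subunit of the SWI/SNF remodelling complex, had a log2 difference of 0.13 (SE 0.37), Mmp11, a secreted metalloproteinase, 0.26 (SE 0.19) and Chchd10, a mitochondrial protein, 0.11 (SE 0.18). Gm867 (-0.66, SE 0.56) and Gm5134 (-0.12, SE 0.16) did not pass in limma either, at adjusted p of 0.677 and 0.793.

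The flanking gene that fell in limma was Gucd1, a guanylyl cyclase domain gene 253 kb from Ddt. WT1, WT2 and WT3 had 5155, 4272 and 4788 normalized reads of it, against 3057, 3044 and 3362 for KO1, KO2 and KO3, a log2 difference of -0.58 (SE 0.10, limma adjusted p 0.0227). All 3 knockout libraries lay below all 3 wild-type libraries. Gucd1 was not called without WT1, WT3, KO1 or KO2, nor with scaling to total reads, with voom weights or without the mean-variance trend.

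**Figure D3:**
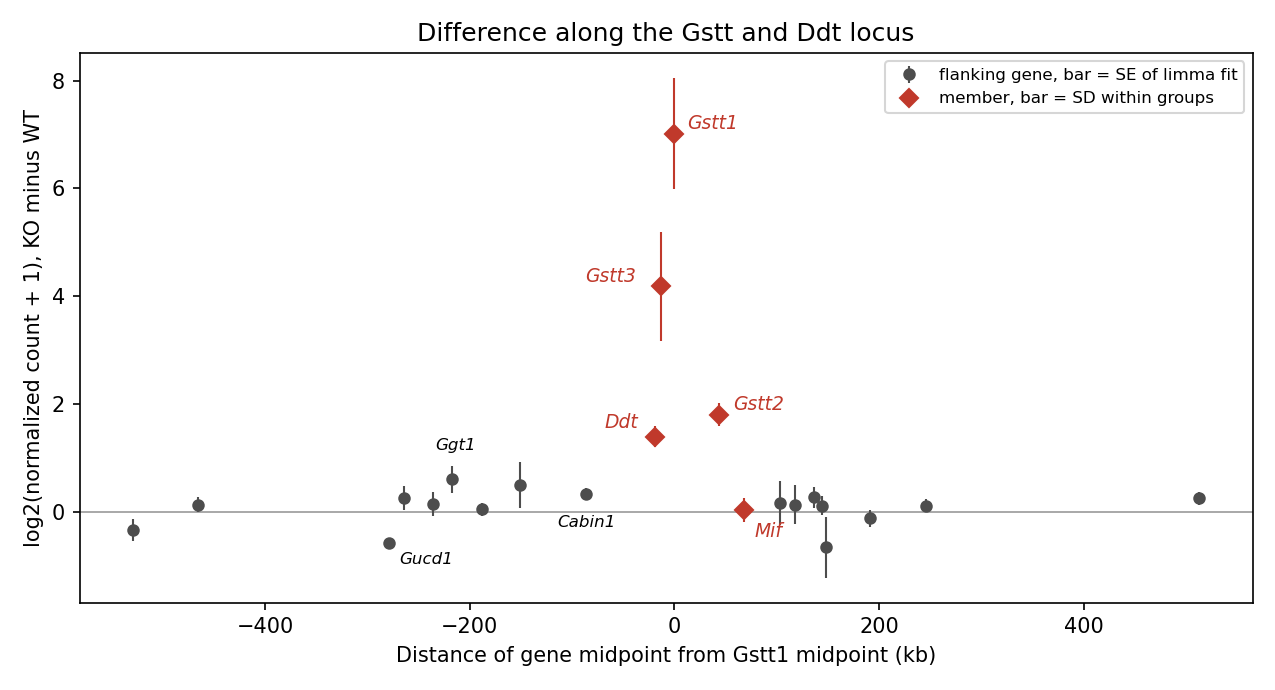
Log2 difference, knockout minus wild type, of the 5 members (red diamonds, bars giving the SD within groups) and of the 17 tested flanking genes (grey points, bars giving the SE of the limma fit), against the distance in kb of each gene's midpoint from that of Gstt1. The tested flanking genes lie between -0.66 and 0.60. Gstt4 was too low to be tested and is not shown. Gstt1, Gstt3, Gstt2 and Ddt, which lie between 1.39 and 7.02, were chosen by these values, so the ranges are not compared.

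Other genes of glutathione and of the Mif pathway were read from lists that were chosen with earlier results of these data known. Of 26 other glutathione transferase genes, of the alpha, mu, pi, omega, zeta, kappa and microsomal classes, with Gstt4 and a few relatives, 21 had a row and 14 were tested. Limma called 0 of the 14, beside 1.51% of all tested rows. Gstm1 alone had an unadjusted p under 0.05, beside 12.7% of all tested rows. Without KO3 limma also called 0 of the list, where 4.32% of all rows were called. The list's median log2 difference was 0.16. In 1 of the 14 the groups did not overlap, against 18.8% of all tested rows. Gstm1, a mu class enzyme, had the smallest p. It was at 60.0, 49.5 and 59.5 normalized reads in the wild type and 77.1, 80.1 and 138 in the knockout (log2 difference 0.75, SE 0.27, limma adjusted p 0.286). The groups of Gstm1 did not overlap, and KO3 was its highest library as it was for Gstt1 and Gstt3. The pi class gene Gstp3 went from 1598 ± 145 to 1941 ± 289 and Hpgds, the prostaglandin D synthase of this family, from 287 ± 0.878 to 351 ± 86.5 (SD, n = 3 per group), both without passing. Sequence shared among the pi class genes was not measured.

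Of 36 genes of glutathione synthesis, recycling and use, 33 had a row and 23 were tested, of which 1 rose, 0 fell and 22 did not pass in limma. An unadjusted p under 0.05 was found for 5 (Oplah, Gsr, Gpx1, Glrx3 and Ggt1, the last pair named after their values were seen), beside the 12.7% of all tested rows. The gene that rose was Oplah, the oxoprolinase that returns a product of glutathione breakdown to glutamate. It had 170, 144 and 154 normalized reads in the wild type and 441, 541 and 583 in KO1, KO2 and KO3, with no overlap (log2 difference 1.73, SE 0.15, limma adjusted p 0.000549). The glutathione reductase gene Gsr went from 1340 ± 148 to 1703 ± 105 and the glutathione peroxidase gene Gpx1 from 5418 ± 174 to 4409 ± 605 (SD, n = 3 per group), at limma adjusted p of 0.211 and 0.282. The list's median log2 difference was -0.06. Without KO3, Gpx1 was called as lower and Oplah as higher.

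Of 44 genes of the oxidative stress response, which include many targets of the transcription factor Nfe2l2, 41 were tested, 1 rose, 0 fell and 40 did not pass in limma, while 7 were at an unadjusted p under 0.05, as were 12.7% of all tested rows. The gene that rose was Cbr3, a carbonyl reductase on another chromosome, at 2.79, 0 and 2.32 normalized reads in the wild type and 237, 1569 and 323 in KO1, KO2 and KO3 (log2 difference 7.73, SE 0.76, limma adjusted p 0.00111). KO2 was its highest library, unlike Gstt1. Cbr3 was not called with voom weights. Ephx1, the microsomal epoxide hydrolase, went from 4015 ± 95.4 to 5640 ± 659 (SD, n = 3 per group) without passing (limma adjusted p 0.0607), and Txnrd2, a mitochondrial thioredoxin reductase, from 298 ± 44.1 to 419 ± 66.3 (limma adjusted p 0.249). The median of the list was -0.03. Without KO3, Cbr3 and Ephx1 were called as higher and the ferritin gene Ftl1 as lower.

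No tested receptor or signalling gene of Mif and Ddt passed. Of 12 listed, 10 had a row and 8 were tested. Limma called 0 of them, voom weights gave 0, and 0 had an unadjusted p under 0.05. Over all tested rows, 1.51% were called in limma and 12.7% reached an unadjusted p this low. With only 8 genes tested, counts of 0 cannot show that the pathway was unchanged. Mapk3, a kinase downstream of the receptor, had a log2 difference of -0.18 (SE 0.13, limma adjusted p 0.609). The receptor gene Cd74, abundant in B cells, was at 29.3, 13.2 and 44.0 normalized reads in the wild type and 32.8, 16.0 and 190 in KO1, KO2 and KO3. Its high value was in KO3, the library with the most B cell marker reads, and the part of those cells was not tested.

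**Figure D4:**
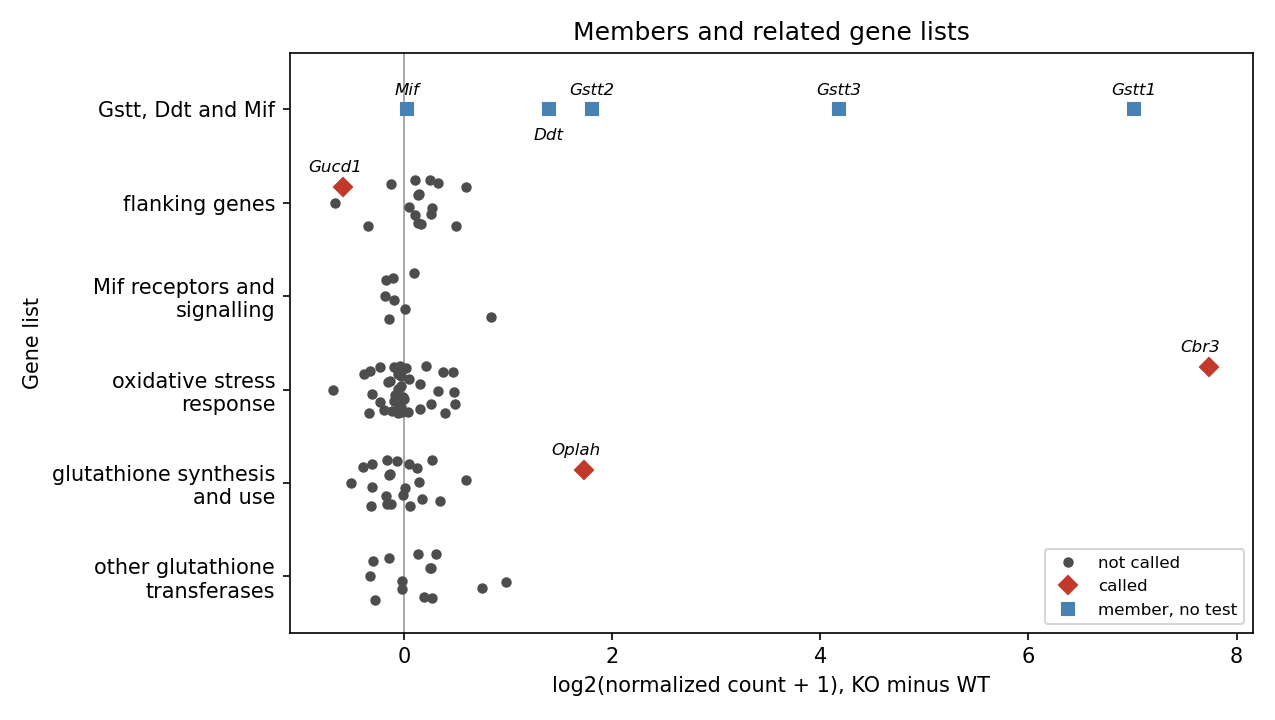
Log2 difference, knockout minus wild type, of each tested gene in the 5 lists and of the 5 members, with 1 point per gene (grey circles not called, red diamonds called in limma, blue squares members, which were not tested, and vertical offsets within a list without meaning). Oplah at 1.73, Cbr3 at 7.73 and Gucd1 at -0.58 are the called genes.

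Rows whose pattern over the 6 libraries was most like that of each member were found by the root mean square difference of log2 values, each row being taken relative to its own wild-type mean. Nearest to Ddt were Eno2, a neuronal enolase (distance 0.071), the non-coding RNA Gm6639 (0.094) and Icosl, the ligand of the costimulator Icos (0.119). Eno2 had 27.9, 27.5 and 30.1 normalized reads in the wild type and 57.1, 90.3 and 81.3 in the knockout, which like Ddt is highest in KO2. Nearest to Gstt2 were Oplah (0.174), Mboat4, the acyltransferase of ghrelin (0.191), and Ramp3, a receptor partner protein (0.192). Ddt and Gstt2 themselves were 0.32 apart. The rows nearest to Gstt3 and Gstt1 were less close. For Gstt3 they were Nxpe5 (0.556), the laminin gene Lama4 (0.735) and 9430037G07Rik (0.742), of which 9430037G07Rik was highest in KO3, at 100.4. For Gstt1 they were Kcnf1 (0.975), Cacna1b (1.08) and Prr5 (1.37), none of which had its highest value in KO3. Mif was nearest to Tor2a (0.041), Haus4 (0.049) and Cep72 (0.053), all with KO1 lowest and KO3 highest. Icosl and Lama4 are also on chromosome 10, at chr10:78069368-78079525 and chr10:38965515-39110188, outside the 500 kb window.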

How the data were processed

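Total RNA of 3 wild-type and 3 Trim28 knockout libraries was read as 100 bp pairs, per the labels' protocols. STAR, HTSeq, DESeq2 and mm10 are named, per the submitters' processing notes, without roles or versions. The authors deposited 1 table of 19048 RefSeq transcript rows on a log10 scale, the base being found from the values. With 10 to the value minus 1, 100% of values were whole multiples of 1 step per library, within 0.01, so reads could be recovered. The strand of the libraries is not stated.

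Rows were named from RefSeq's GRCm38.p6 gene table (18811 rows) or GENCODE M21 (104), and 133 stayed unnamed. The row with the highest total stood for a gene. RefSeq lists a second transcript for Gstt3 and for Gstt1, not analysed here. limma 3.58.1 in R 4.3.3 was fitted to log2 of the normalized count plus 1, with the trend, on 13022 rows with a mean of at least 10, and was tested on simulated data first. The members and lists were chosen with earlier results of these data known. Named genes were the members, called list genes, the 3 smallest p per list, tested genes within 100 kb and the 3 rows most like each member. The values of 1 gene that this rule names are not reported here. The planned settings (pseudocount, filter, scaling, variance model, summed rows, replicate block, leaving out each library) are described at the end.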

Additional observations from a re-analysis of the deposited data

How the results depend on the processing

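The rows called numbered 196 and were 124 without the mean-variance trend and from 114 (without KO2) to 562 (without KO3) with 1 library left out, the others being 124 without WT1, 134 without WT2, 127 without WT3 and 138 without KO1. The called flanking gene was lost (0 called) with scaling to total recovered reads, without the trend and with voom weights, and leaving out 1 library gave 0 to 1. Leaving out 1 library gave 1 to 2 called genes of glutathione synthesis and use and 1 to 3 of the oxidative stress response, where voom weights gave 0. Other glutathione transferases and the Mif pathway gave 0 called genes in every setting run. The log2 difference of Gstt1 was 5.18 with a pseudocount of 5 (7.02 with 1), and 6.56 to 7.72 with 1 library left out. Those of Ddt (1.28 to 1.54), Gstt3 (3.49 to 4.77) and Gstt2 (1.71 to 1.95) stayed within the spread of the libraries, and that of Mif ran from -0.13 to 0.15. With the replicate number as a block 175 rows were called and no list count changed. Deviations of same-numbered libraries from their group means correlated at -0.31, 0.26 and 0.36. With 3 libraries per group these values cannot show whether the numbers pair the libraries. The causes were not tested. Depth limits Gstt1, Gstt3 and Gstt4, whose wild-type values rest on 3, 21 and 1 reads.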
